A study of Homo sapiens with 6 samples.

Results

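The collagen genes are the 42 autosomal protein-coding genes whose symbols read COL, a number, A and a number, out of 19126 autosomal protein-coding genes in the gene table used here. Their chromatin was read by ATAC-seq, in which a transposase cuts and tags open DNA before sequencing. The cells were of the human line NCI-H1703, established from a squamous carcinoma of the lung. In 3 libraries the long non-coding RNA DLGAP1-AS2 had been silenced, and 3 libraries came from control cells. The labels name no time point, no agent of silencing and no treatment of the control cells, and all 6 libraries share the same line. A collagen gene was counted as having a gene-end peak where the midpoint of a called peak lay within 1 kb of either end of its GRCh38 span, and peaks overlapping the span were counted as well. The genes themselves were picked by symbol, a rule that uses no value from these libraries, but with earlier results of these data known.

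Collagens are triple-helical proteins of the extracellular matrix, each built from alpha chains that the COL genes encode. Fibrillar collagens form the cable-like fibrils of connective tissue, and collagen IV forms the sheet of the basement membrane on which epithelial cells sit. FACIT collagens bind to the surface of fibrils, beaded-filament collagen VI links cells to matrix, transmembrane collagens are anchored in the cell membrane, and multiplexins lie near basement membranes. In carcinomas much of the fibrillar collagen is known to be made by fibroblasts of the stroma, which a cultured line does not contain. Open chromatin at a gene end often marks a promoter, but a peak is not a measure of transcription, and no RNA was measured here.

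The lists held between 91346 and 170882 peaks per library, the shortest being control 2 and the next shortest, of 121406, silenced 3. Read depth is unknown. A background coverage computed from the lists stands in for it and ran from 0.237 in silenced 3 to 0.464 in control 2. In control 2 only 2.46% of peaks had a height (the pileup the authors give for a peak) under 4, against up to 52.1% in the other libraries. The tallest peak within 1 kb of the targeted gene, DLGAP1-AS2, had heights of 29, 30 and 14 in silenced 1, 2 and 3 and of 21, 34 and 23 in control 1, 2 and 3, which says nothing of its RNA. Of 7 squamous markers, SOX2 alone (14.3%) had a gene-end peak in all 6 libraries, against 58.7% of all genes, KRT6A had none, and TP63 was called in 4. Of 8 mesenchymal or fibroblast markers, 5 (62.5%) were called in all 6, among them VIM and ZEB1, and THY1 had no peak. Of 4 epithelial markers KRT8 alone was called in all 6, of 4 alveolar markers 3, of 3 leukocyte markers 1, and of 3 endothelial markers none. The alveolar marker SFTPC had the same heights in every library as BMP1, so the 2 genes share a peak.

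The DNA at a few collagen gene starts shows how different these sites are. RefSeq promoter entries of build GRCh38.p14 were found for 30 of the 42 genes, with 41 starts in all. The following 5 sequences are the 250 bases just before a start, written 5′ to 3′ on the strand of the gene. Capitals mark matches on either strand to the GC box GGGCGG, the CCAAT box CCAAT, the TATA box TATAAA, the AP-1 motif TGANTCA and the TEAD motif GGAATG, and a match to one may overlap a match to another. COL5A1, COL12A1 and COL10A1 are shown because a peak overlapped the start given here in all 6 libraries, and COL11A1 and COL17A1 because none did in any library.
COL5A1: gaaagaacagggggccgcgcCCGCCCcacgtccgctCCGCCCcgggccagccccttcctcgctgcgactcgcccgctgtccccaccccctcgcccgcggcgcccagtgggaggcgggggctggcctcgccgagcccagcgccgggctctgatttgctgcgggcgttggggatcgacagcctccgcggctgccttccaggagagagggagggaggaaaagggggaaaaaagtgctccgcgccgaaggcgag
COL12A1: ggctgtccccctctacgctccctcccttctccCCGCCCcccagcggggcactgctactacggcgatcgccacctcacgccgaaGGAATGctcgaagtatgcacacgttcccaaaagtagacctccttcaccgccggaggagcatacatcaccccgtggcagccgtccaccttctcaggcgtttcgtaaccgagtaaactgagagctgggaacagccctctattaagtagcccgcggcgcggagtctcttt
COL10A1: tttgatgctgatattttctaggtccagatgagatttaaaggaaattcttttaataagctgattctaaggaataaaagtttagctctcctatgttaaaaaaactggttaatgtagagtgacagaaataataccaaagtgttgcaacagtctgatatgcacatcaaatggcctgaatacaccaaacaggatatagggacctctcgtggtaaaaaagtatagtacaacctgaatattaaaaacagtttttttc
COL11A1: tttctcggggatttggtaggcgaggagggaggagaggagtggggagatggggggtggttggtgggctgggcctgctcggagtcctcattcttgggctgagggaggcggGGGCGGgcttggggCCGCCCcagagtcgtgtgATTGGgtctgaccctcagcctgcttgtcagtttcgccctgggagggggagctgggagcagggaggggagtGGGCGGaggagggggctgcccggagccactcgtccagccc
COL17A1: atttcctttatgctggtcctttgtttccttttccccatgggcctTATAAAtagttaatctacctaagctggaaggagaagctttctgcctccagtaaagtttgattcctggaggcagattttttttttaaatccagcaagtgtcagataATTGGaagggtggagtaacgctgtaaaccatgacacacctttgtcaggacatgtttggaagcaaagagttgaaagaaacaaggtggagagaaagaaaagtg
The COL5A1 stretch (chr9:134641553-134641802, plus strand) was 74.0% G or C and held 2 GC boxes. The COL12A1 stretch (chr6:75206054-75206303, minus strand) was 61.2% G or C, with 1 GC box and 1 TEAD motif. The COL10A1 stretch (chr6:116217145-116217394, minus strand) was only 32.4% G or C and held none of the 5 motifs, although it was called in every library. COL11A1 (chr1:103108523-103108772, minus strand) was 68.8% G or C with 3 GC boxes, and no peak was called there. COL17A1 (chr10:104085881-104086130, minus strand) was 40.4% G or C and held a TATA box and a CCAAT box. A match is a run of letters and not a proven binding site. Base composition alone did not separate the called from the uncalled starts among these 5, which were chosen from more that fit the stated reasons. Of the 41 collagen starts, the COL10A1 start shown here had the lowest G or C content. In the windows described below, the median was 73.3% at the 11 collagen starts with a peak in all 6 libraries. It was 58.8% at the 16 starts without a peak, and the ranges overlapped.

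The collagen IV genes lie in head-to-head pairs whose spans leave only a short gap, shown because 1 stretch of open chromatin serves as the gene-end peak of both genes. Both gaps are written on the plus strand with the same motifs in capitals.
COL4A1-COL4A2: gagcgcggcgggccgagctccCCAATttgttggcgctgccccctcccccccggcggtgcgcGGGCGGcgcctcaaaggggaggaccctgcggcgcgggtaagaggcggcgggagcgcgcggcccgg
COL4A4-COL4A3: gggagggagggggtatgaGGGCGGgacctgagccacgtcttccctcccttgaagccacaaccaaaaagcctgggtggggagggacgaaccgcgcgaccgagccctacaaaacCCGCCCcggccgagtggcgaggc
The gap between COL4A1 and COL4A2 (chr13:110307158-110307283) spans 126 bases, is 80.2% G or C and holds 1 GC box and 1 CCAAT box. The gap between COL4A4 and COL4A3 (chr2:227164489-227164623) spans 135 bases, is 68.1% G or C and holds 2 GC boxes. Over windows of 300 bases, from 250 before to 50 after a start, GC boxes were found in 56.1% of the 41 collagen starts and 56.6% of all 21156 starts, CCAAT in 29.3% and 34.4%, and TATAAA in 19.5% and 9.51%. The AP-1 motif was found in 2.44% of collagen starts and 6.08% of all starts, and the TEAD motif in 7.32% and 12.2%.

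A peak overlapped the promoter window in all 6 libraries at 11 collagen starts (26.8%), against 48.0% of all starts, and in none at 16 (39.0%), against 33.3%. The 11 starts belonged to 10 genes, COL10A1, COL12A1, COL18A1, COL23A1, COL27A1, COL4A3, COL4A4, COL5A1, COL5A3 and COL6A2. Their median G or C content was 73.3%, against 58.8% at the 16 starts without a peak. Over all genes the same medians were 66.0% and 53.3%. The GC box was found in 9 of the 11 called and 5 of the 16 uncalled collagen starts. These figures describe starts that share genes, since 7 collagen genes have more than 1 start in the table.

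The number of collagen genes with a gene-end peak differed between silenced and control cells by less than the spread of the libraries. In silenced 1, 2 and 3 there were 29, 30 and 28 such genes, and in control 1, 2 and 3 there were 30, 27 and 29. The means were 29.0 ± 1.0 and 28.7 ± 1.53 (SD, n = 3 libraries each), and the groups overlapped. Among all genes the number was 12582 to 13602 per library. A gene-end peak was present in all 6 libraries in 25 collagen genes (59.5%), against 58.7% of all genes, and in no library in 7 (16.7%), against 15.7%. No collagen gene had a peak in all libraries of 1 group and none of the other, a pattern found in 0.0837% of all genes for the silenced and 0.199% for the control libraries. With peaks limited to those whose false discovery rate, as the authors give it, was at most 1e-05, only 8 genes were called in all 6 libraries and 18 in none.

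**Figure D1:**
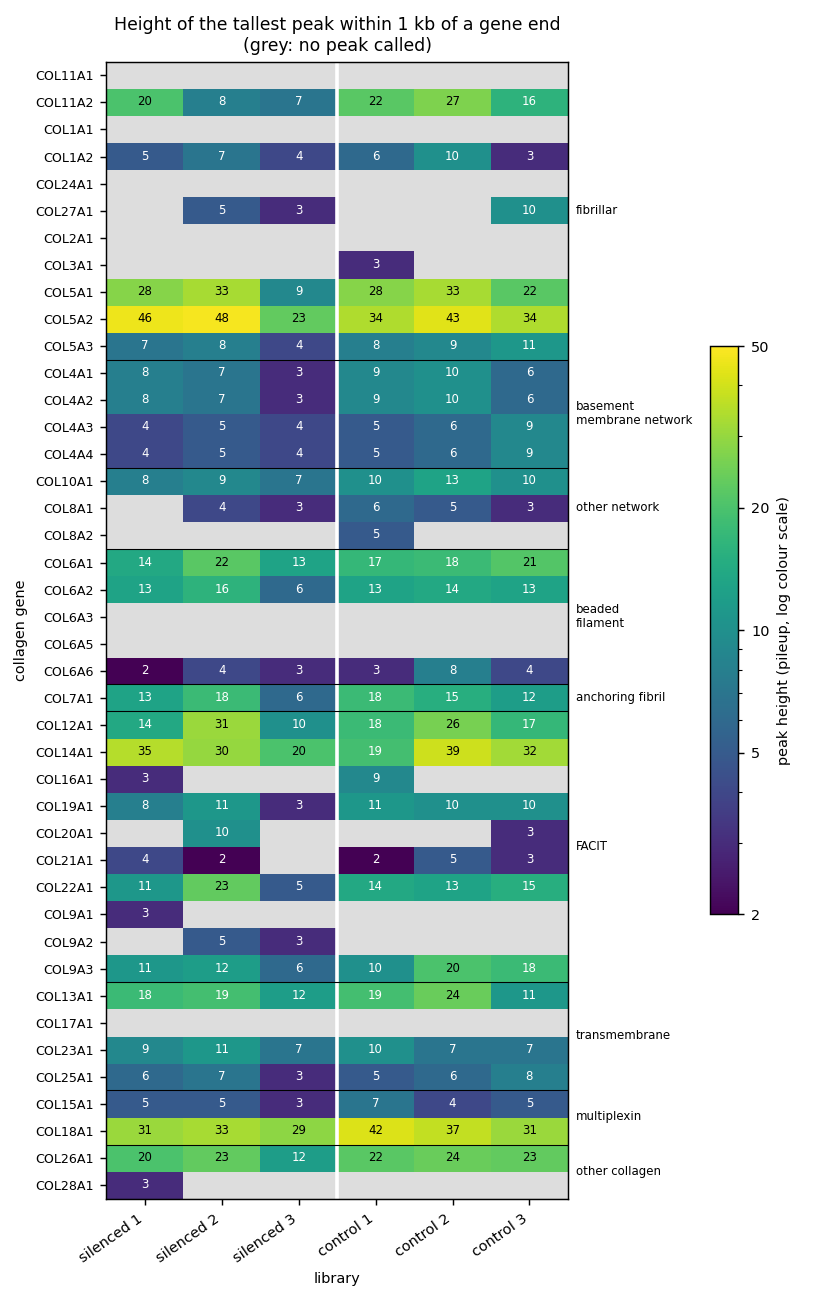
Height of the tallest peak within 1 kb of either gene end for each of the 42 collagen genes (rows, by class) in each of the 6 libraries (columns), with height as the printed number and on a log colour scale and grey where no peak was called. COL5A2 reached 48 in silenced 2, 7 rows are grey throughout, and no row is filled in 1 group and empty in the other.

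Among fibrillar collagens, 5 of 11 genes were called at a gene end in all 6 libraries, 4 in none and 2 in between. COL5A2, which encodes a chain of the collagen V that sets fibril diameter, had the tallest gene-end peaks of the class. Its heights at the upper-coordinate end were 46, 48 and 23 in silenced 1, 2 and 3 and 34, 43 and 34 in control 1, 2 and 3. Silenced 3 was lowest and the groups overlapped. That region (chr2:189440736-189441835) also lies within 1 kb of an end of WDR75, so the peak cannot be assigned to COL5A2 alone. COL5A2 had no RefSeq promoter entry, so whether this end is a start of the gene is unknown here. The inner COL5A2 region with the highest mean height (chr2:189179472-189180022) had 21, 26 and 13 against 35, 26 and 24. COL5A1, whose product is the partner chain, had start peaks of 28, 33 and 9 in the silenced and 28, 33 and 22 in the control libraries, and no other gene end lay within 1 kb of the region (chr9:134641474-134641856). The values of the first 2 libraries of either group were equal, and silenced 3 was lowest.

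COL5A3, for a rarer collagen V chain, stayed lower, at 7, 8 and 4 in the silenced and 8, 9 and 11 in the control libraries. COL1A2, for the second chain of collagen I, the main collagen of bone and skin, had heights of 5, 7 and 4 against 6, 10 and 3. The range of the silenced values of COL1A2 lay within that of the controls. COL1A1, for the other chain of collagen I, had no peak within 1 kb but 1 just outside, centred 1083.5 to 1159.5 bp from its upper-coordinate end. Its heights there were 28, 27 and 11 in the silenced and 21, 23 and 34 in the control libraries. The count of 7 genes without a gene-end peak therefore depends on the window and became 2 at 2 kb.

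COL11A2, for a chain of the collagen XI of cartilage, gave a case at the other side of the limit. Its far-end peaks had heights of 20, 8 and 7 in the silenced and 22, 27 and 16 in the control libraries, and silenced 1 fell among the controls. In silenced 1 and the 3 controls the midpoint lay 952.5 to 996 bp from the end, just inside the window, whereas in silenced 2 and 3 other peaks, at 594 and 385.5 bp, were the ones counted. COL27A1, a fibrillar collagen of cartilage, had gene-end peaks of 5 in silenced 2, 3 in silenced 3 and 10 in control 3 and none in the other 3 libraries. A RefSeq start of COL27A1 inside the span was overlapped by peaks of 32, 26 and 11 in the silenced and 24, 24 and 31 in the control libraries. COL3A1, the chain of the collagen III of vessels and skin, had 1 peak, of height 3 in control 1. COL11A1, COL24A1 and COL2A1, the last the main collagen of cartilage, were not called at an end in any library.

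All 4 autosomal basement-membrane collagens were called in all 6 libraries, with low peaks. The region shared by COL4A1 and COL4A2 (chr13:110306806-110307971), which encode the chains found in nearly every basement membrane, had heights of 8, 7 and 3 in the silenced and 9, 10 and 6 in the control libraries. The region shared by COL4A3 and COL4A4 (chr2:227163899-227164775), for chains of the kidney and lung basement membrane, had heights of 4, 5 and 4 against 5, 6 and 9. Since each pair shares its peak, these 4 genes give 2 independent sites. The groups overlapped or touched at both. Of the 3 genes of other network-forming collagens, COL10A1 is known from the hypertrophic cartilage of growth plates. At its start at the upper-coordinate end it had peaks of 8, 9 and 7 in the silenced and 10, 13 and 10 in the control libraries. RefSeq starts inside its span were overlapped by a peak in 0 libraries (chr6:116126132) and in 1 library (chr6:116158772). Every silenced height of COL10A1 was below every control height, but the ranks used for testing overlapped. Heights are not scaled to depth, and the share of all genes with heights separated in this way was not computed. The COL10A1 span is overlapped by that of NT5DC1, so the peak at its upper-coordinate end lies within both.

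COL8A1 and COL8A2 encode the collagen VIII of the cornea and vessel wall. COL8A1 had heights of 4 and 3 in silenced 2 and 3 and 6, 5 and 3 in the control libraries, with no peak in silenced 1. COL8A2 had 1 gene-end peak, of 5 in control 1. Of the 5 beaded-filament genes, COL6A1 and COL6A2 encode the common chains of collagen VI. COL6A1 had heights of 14, 22 and 13 in the silenced and 17, 18 and 21 in the control libraries, at an end that also lies within 1 kb of LOC105372841. COL6A2 had heights of 13, 16 and 6 against 13, 14 and 13, at a start next to the divergent transcript COL6A2-DT. The groups overlapped for both genes. COL6A6 was called in all 6 at heights of 2 to 8, its nearest peak lying up to 958.5 bp from its end, and COL6A3 and COL6A5 were not called at an end. COL7A1, for the anchoring fibril that ties the epidermal basement membrane to the dermis, had heights of 13, 18 and 6 in the silenced and 18, 15 and 12 in the control libraries.

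The 10 FACIT genes were called in all 6 libraries in 5 cases and in 1 to 5 libraries in the other 5. COL14A1, whose product coats fibrils, had the highest mean height of the class, with 35, 30 and 20 in the silenced and 19, 39 and 32 in the control libraries. COL12A1, which encodes a fibril-bound collagen of dense connective tissue, had start peaks of 14, 31 and 10 against 18, 26 and 17. COL22A1, a collagen of tissue junctions, had heights of 11, 23 and 5 against 14, 13 and 15. The groups overlapped in these 3 genes, and silenced 3 was the lowest silenced library in each. COL9A3, for a chain of the collagen IX on cartilage fibrils, had heights of 11, 12 and 6 against 10, 20 and 18, and COL19A1 had 8, 11 and 3 against 11, 10 and 10.

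The other FACIT genes were called only now and then and with low peaks. COL21A1 was called at heights of 4 and 2 in silenced 1 and 2 and of 2, 5 and 3 in the controls. COL16A1 had a height of 3 in silenced 1 and of 9 in control 1, and COL20A1 had 10 in silenced 2 and 3 in control 3. COL9A2 had 5 and 3 in silenced 2 and 3 and no peak in a control library, and COL9A1 had 1 peak, of 3 in silenced 1. None of these 5 patterns separated the groups.

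Of the 4 transmembrane collagens, COL17A1, the hemidesmosome collagen of basal keratinocytes, had no gene-end peak. COL13A1, a collagen of adhesion sites and neuromuscular junctions, had heights of 18, 19 and 12 in the silenced and 19, 24 and 11 in the control libraries. The 11 of control 3 stood at the start of COL13A1, whose far end had 9 in that library, so these heights mix both ends. COL23A1 had 9, 11 and 7 against 10, 7 and 7, and COL25A1, known from the amyloid plaques of the brain, had 6, 7 and 3 against 5, 6 and 8. The 3 genes overlapped between groups in height. Of the multiplexins, COL18A1, the precursor of endostatin, had 31, 33 and 29 in the silenced and 42, 37 and 31 in the control libraries. These tallest peaks stood at the far end of COL18A1, where the span of SLC19A1 overlaps, so they lie within both genes. The COL18A1 start had a region (chr21:45404915-45405316) with a mean height of 8.83, within the span of BNAT1. COL15A1 was lower, with 5, 5 and 3 against 7, 4 and 5, at a start within 1 kb of an end of COL15A1-AS1. COL26A1, which belongs to none of these classes, had 20, 23 and 12 against 22, 24 and 23 at its far end. Its start had lower peaks, of 10, 9 and 4 against 15, 18 and 14. COL28A1 had 1 gene-end peak, of 3 in silenced 1.

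The collagen gene-end peaks were weak beside those of other genes called in every library. For each gene the strongest fold enrichment at either end was ranked within its library among the 11221 genes called in all 6, and the ranks were turned into normal scores, a scale with 0 at the median. The median of the mean scores of the 25 collagen genes was -1.30, which is at percentile 9.0. It was at percentile 8.51 to 14.1 in the single libraries. Of the 25 genes, 23 lay below the median of all genes and 21 (84.0%) in the lowest 25%. COL4A1 and COL4A2 share a peak and a score, as do COL4A3 and COL4A4, so these peaks are counted once for each gene. The exceptions above the median were COL5A2 at percentile 56.8 and COL14A1 at 51.9, followed by COL5A1 at 39.7, COL13A1 at 29.9 and COL26A1 at 24.0. The COL5A2 peak also lies near an end of WDR75, so its rank cannot be assigned to COL5A2 alone. COL6A6 at 0.143 and COL15A1 at 0.428 were lowest. The median of the mean heights was 12.5 against 36.3 over all 11221 genes. With only the ends that RefSeq gives as a start, the median percentile was 3.39, and with a window of 2 kb it was 15.2. The spans of collagen genes were also long, at a median of 133 kb against 24.5 kb, and what part span length has in the low scores was not tested.

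No collagen gene-end score passed the test between silenced and control cells. Of all 11221 genes tested by limma with Benjamini-Hochberg adjustment, 0.00891% (1 gene, MTMR4, no collagen) had an adjusted p under 0.05, and none of the 25 collagen genes did, the smallest adjusted p among them being 0.939. At an unadjusted p under 0.05 the share was 5.03% of all genes (1.95% higher and 3.07% lower in the silenced cells) and 0 of the 25 collagen genes. Scores were higher in the silenced cells in 12 collagen genes and lower in 13, with a median difference of -0.01 against 0.01 over all genes. The 13 include both genes of each collagen IV pair, which share a peak and a score. The labels do not say that libraries came from separate cultures, so these p-values measure the spread between libraries, which may be technical. In simulated data a shift of 1 unit was recovered in 30 of 200 changed rows at gene ends and in 0 for regions and spans. The collagen gene-end differences ran from -0.73 to 0.56, so the lack of a call does not show a lack of change.

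**Figure D2:**
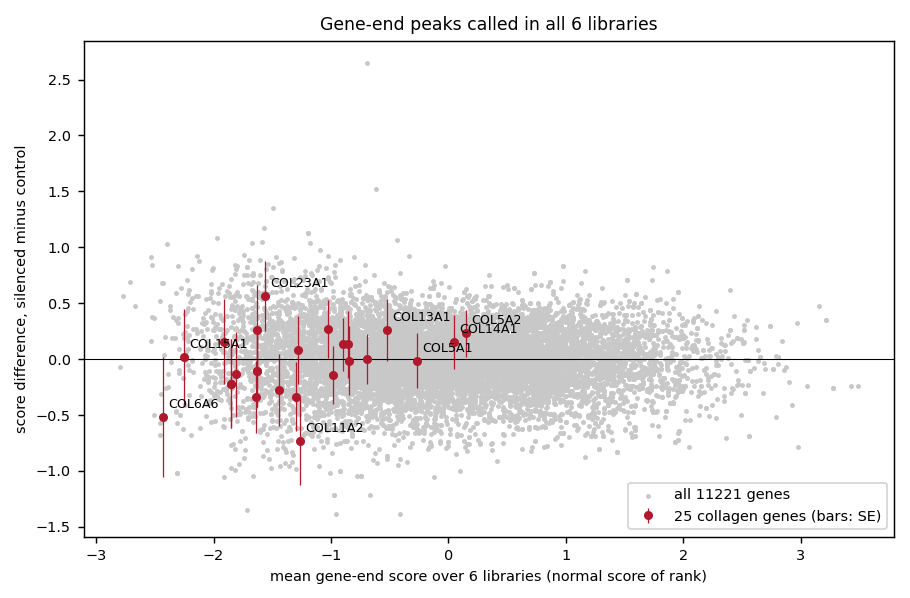
Difference in gene-end score between silenced and control libraries (vertical axis, normal-score units) against the mean score over 6 libraries (horizontal axis) for all 11221 genes (grey) and the 25 collagen genes (red, bars give the standard error). The collagen genes lie mostly left of 0 on the horizontal axis, and their differences run from -0.73 for COL11A2 to 0.56 for COL23A1.

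The largest differences in gene-end score were those of COL23A1 and COL11A2. COL23A1 was higher in the silenced libraries by 0.56 ± 0.31 (SE; limma adjusted p = 0.939) and by 0.36 without control 2, and its groups did not overlap in score although they did in height. It was the only 1 of 25 with that pattern, which 5.53% of all genes showed in the higher direction, and none of the 25 showed the lower one, against 5.15% of all genes. COL5A2 differed by 0.23 ± 0.21 (SE) and COL6A1 by 0.27 ± 0.26 (SE), both with an adjusted p of 0.948 by limma. Without silenced 1 the COL5A2 difference was 0.12, and without silenced 3 that of COL6A1 was 0.09. COL11A2 differed by -0.73 ± 0.40 (SE; limma adjusted p = 0.939), and by -0.15 without silenced 2, a library in which another peak was counted. COL19A1 differed by -0.33 ± 0.30 (SE) and COL5A3 by -0.34 ± 0.32 (SE), again with an adjusted p of 0.948. The COL19A1 difference was -0.03 without silenced 3 and turned to 0.11 with a window of 2 kb, and that of COL5A3 was -0.14 without control 3. At 2 kb the COL11A2 difference was -0.14. In heights, silenced 3 was the lowest library in 18 of the 25 genes (72.0%), against 92.1% of all genes, and its background coverage was the lowest of the 6.

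Peaks anywhere in the collagen spans took a like share of each group's lists. They made up 0.281% ± 0.0325 of autosomal peaks in the silenced and 0.294% ± 0.00959 in the control libraries (SD, n = 3 each), and the single values of 0.258% to 0.319% overlapped. The number of peaks in a span was scaled to the length of the autosomal list and tested for the 7684 genes with a mean of at least 3 peaks, 35 of them collagen genes. None of all 7684 genes (0%) and so none of the 35 had an adjusted p under 0.05 by limma, the smallest being 0.998. At an unadjusted p under 0.05 there were 4 collagen genes (11.4%), 2 in each direction, against 2.56% of all genes (1.16% higher and 1.41% lower). Of the 35, 20 were higher and 15 lower in the silenced cells, against 3377 and 4307 of all genes. This split turned with the processing, to 13 higher and 22 lower without control 2, 9 and 17 with lists of equal size, and 16 and 20 without silenced 1.

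COL6A3, for the long chain of collagen VI, had 5, 7 and 4 peaks in its span in silenced 1, 2 and 3 and 6, 1 and 1 in control 1, 2 and 3. Control 1 lay among the silenced libraries, and the log2 difference was 1.10 ± 0.48 (SE). COL19A1 had 21, 18 and 16 peaks against 15, 4 and 18, a log2 difference of 0.66 ± 0.32 (SE). COL10A1 had 5, 8 and 5 against 6, 1 and 6, a log2 difference of 0.56 ± 0.40 (SE). In all 3 genes control 2, the list with few peaks under a height of 4, held the smallest number or shared it with control 3. Without control 2 the difference of COL10A1 was 0.14, that of COL19A1 0.32 and that of COL6A3 1.04. The COL6A3 difference was 0.62 without control 3 and 1.65 without control 1.

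Lower numbers in the silenced cells were those of COL8A1, COL16A1 and COL3A1. COL8A1 had 7, 5 and 5 peaks in the silenced and 10, 6 and 14 in the control libraries, a log2 difference of -0.83 ± 0.33 (SE). COL16A1 had 7, 5 and 3 against 10, 7 and 8, a log2 difference of -0.86 ± 0.35 (SE). COL3A1 had 4, 4 and 3 against 8, 4 and 5, a log2 difference of -0.64 ± 0.37 (SE). With lists of equal size the COL8A1 difference was -0.31, and at a false discovery rate of at most 1e-05 it was -0.045. After scaling to the list length the groups of these 3 genes did not overlap, as in 3.47% of all genes in that direction, and no collagen gene showed the higher one, against 3.25%. Limma's adjusted p was 0.998 for each of the 6 genes named for their span.

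**Figure D3:**
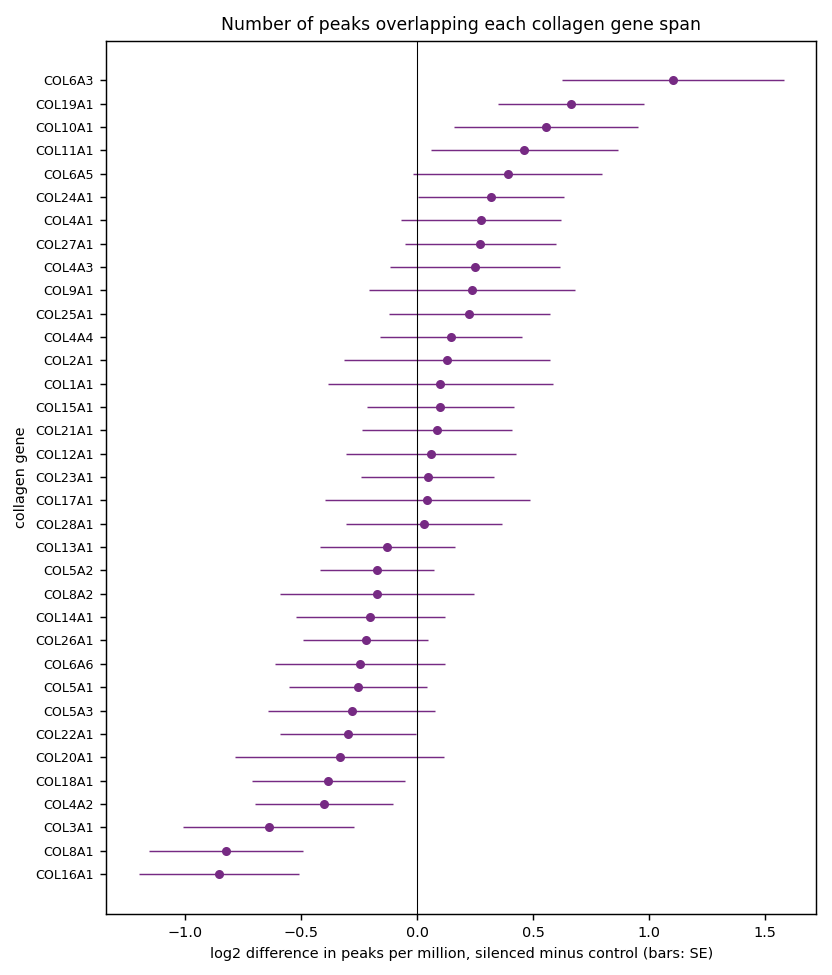
Log2 difference in the number of peaks, scaled to the length of the autosomal list, between silenced and control libraries (horizontal axis) for the 35 collagen genes with a mean of at least 3 peaks in the span (points, with bars for the standard error). COL6A3 stands highest at 1.10 and COL16A1 lowest at -0.86, and none passed the adjusted threshold.

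Most collagen-span peaks were seen in a single library. After the 6 lists were merged, the spans held 1427 regions, of which 73.7% were called in 1 library, against 74.1% of all 507440 merged regions and 71.4% of those in protein-coding spans. In all 6 libraries 94 were called (6.59%), against 7.35% of all regions. Only 21 of these 94 (22.3%) lay within 1 kb of an end of any gene, the holding gene or another. In all protein-coding spans the share of such regions was 45.9%. Collagen spans are longer, at a median of 133 kb against 24.5 kb, and this share was not taken among genes of like length. In collagen spans the regions near a gene end were lower than the others, at a median height of 9.5 against 14, whereas over all spans they were taller, at 33.5 against 13. COL5A2 and COL26A1 held 8 regions each and COL5A1 6, and COL3A1, COL7A1, COL9A1 and COL9A2 held none.

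In most collagen genes the shared region with the highest score lay inside the gene and more than 1 kb from both ends. Counting every region that overlaps the span or has its midpoint within 1 kb of an end, this was so in 28 of the 39 collagen genes with such a region (71.8%), against 31.4% of 14005 genes. Collagen spans are long, and among genes with a span of at least 100 kb the shares were 20 of 24 (83.3%) and 54.6% of 2979. The exceptions were COL4A3, COL6A1, COL6A2, COL10A1, COL12A1, COL1A2, COL5A3 and COL5A2, whose strongest region overlapped the span, and COL7A1, COL11A2 and COL14A1, where it lay just outside. Among regions that overlap the span alone the count was 30 of 38 (78.9%), against 32.9% of 13702 genes, with COL11A2 and COL14A1 counted as inner. An inner region can still lie at a start. That of COL27A1 overlapped a RefSeq start of the gene, and that of COL4A2 lay within 1 kb of an end of COL4A2-AS2. COL28A1, with hardly a peak at its ends, held the region of the highest score (chr7:7438830-7439363), 100902 bp from the nearest end, at heights of 23, 50 and 33 in the silenced and 27, 32 and 37 in the control libraries. COL17A1, without a gene-end peak, held one (chr10:104045453-104045991) of 27, 24 and 24 against 35, 37 and 33. Every silenced value of COL17A1 lay below every control value in height, which is not scaled to depth, but not in score. How many of all regions have heights separated in this way was not computed.

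Other genes with no gene-end peak, or in COL8A2 with 1 in a single library, also had an inner region called throughout. COL11A1 had one (chr1:102879449-102880024) of 14, 20 and 11 in the silenced and 15, 16 and 12 in the control libraries, and COL6A5 one (chr3:130480749-130481096) of 18, 12 and 10 against 13, 22 and 18. In COL8A2 a region 1858.5 bp from the lower-coordinate end (chr1:36096748-36097447) had heights of 36, 34 and 10 against 35, 54 and 34. The groups overlapped in each of these 3 genes. COL9A3, COL15A1, COL13A1 and COL23A1 had inner regions with mean heights of 32.0, 25.7, 26.0 and 26.2, above the peaks at their own ends. Whether these regions act on the gene that holds them was not tested.

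**Figure D4:**
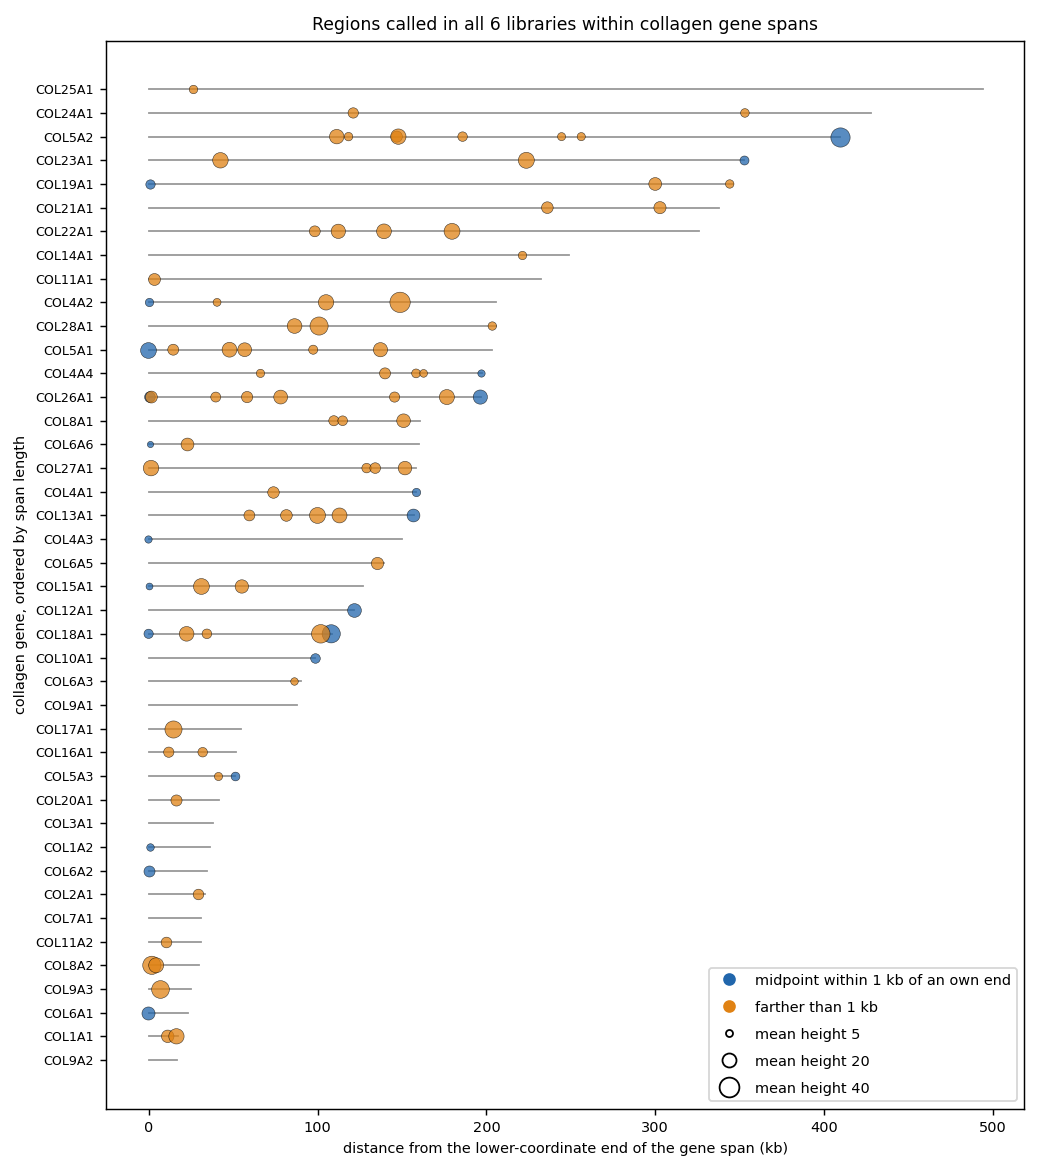
Regions called in all 6 libraries along the span of each of the 42 collagen genes, placed by distance in kb from the lower-coordinate end (horizontal axis), with genes ordered by span length. Points grow with the mean height over libraries, blue points have their midpoint within 1 kb of an end of that gene, and orange points lie farther inside. Regions that do not overlap the span are not drawn, and among those drawn an orange point has the highest score in 30 of 38 genes.

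None of the 94 shared collagen regions passed the test between silenced and control cells. Of all 37284 shared regions, 0% had an adjusted p under 0.05 by limma. At an unadjusted p under 0.05 there were 6 of the 94 (6.38%), against 4.68% of all regions. Of these, 2 were higher in the silenced cells (1.98% of all regions) and 4 lower (2.7%). Groups did not overlap in score in 3 collagen regions in the higher direction (background 5.39%) and in 5 in the lower (background 4.78%). Scores here are ranks among shared regions, so they differ from the gene-end scores above.

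In the direction of higher scores in the silenced cells, a COL6A3 region 3931.5 bp inside its start (chr2:237410029-237410436) had heights of 8, 7 and 5 against 5, 4 and 6, a score difference of 0.93 ± 0.43 (SE). A COL24A1 region (chr1:86082124-86082571) had 10, 8 and 8 against 4, 6 and 10, a score difference of 0.88 ± 0.42 (SE). A COL13A1 region (chr10:69914662-69915174) had 24, 39 and 15 against 12, 28 and 19, a score difference of 0.57 ± 0.30 (SE). Heights overlapped between the groups in all 3, and only the COL6A3 region was separate in score. Its difference was 0.57 without control 2, and without control 1 that of the COL24A1 region was 0.51 and that of the COL13A1 region 0.17.

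In the other direction, the COL26A1 region at its start (chr7:101362837-101363385) had heights of 10, 9 and 4 in the silenced and 15, 18 and 14 in the control libraries. Its score difference was -0.87 ± 0.37 (SE), and the groups did not overlap. The COL4A4 region (chr2:227106948-227107713) had 12, 9 and 5 against 16, 20 and 13, a score difference of -0.69 ± 0.30 (SE). The COL4A2 region (chr13:110455868-110456451), which lies within 1 kb of an end of the antisense gene COL4A2-AS2, had 36, 44 and 23 against 49, 52 and 50, a score difference of -0.42 ± 0.19 (SE). In all 3 every silenced height was below every control height, with silenced 3 lowest, but the COL4A4 scores overlapped. Heights are not scaled to depth, and background coverage averaged 0.336 in the silenced and 0.405 in the control libraries. The share of all regions with heights separated in this way was not computed. The COL4A4 difference was -0.46 without silenced 3, and ranked by height that of COL4A2 was -0.20. Limma's adjusted p was 0.963 for each of the 6 named regions.

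Regions called in 1 group only were few and mostly weak. In all 3 silenced and no control library there were 3 (0.210%, against 0.13% of all merged regions), and in all 3 control and no silenced library 5 (0.350%, against 0.2%). The silenced-only regions were 2 in COL23A1 (chr5:178298330-178298744, heights 2, 6 and 3, and chr5:178515031-178515435, heights 3, 5 and 3) and 1 in COL6A6 (chr3:130547065-130547304, heights 3, 3 and 3). Few peaks under a height of 4 were listed in control 2. The control-only regions were 3 in COL22A1, 1 in COL5A2 and 1 in COL9A2. Of those in COL22A1, one had heights of 10, 11 and 12 in control 1, 2 and 3, another 9, 10 and 11, and the last 2, 5 and 5. The COL9A2 region (chr1:40305490-40305748) had 8, 6 and 5, and the COL5A2 region (chr2:189067941-189068308) 2, 7 and 2. An exact test of presence in 3 libraries against 3 cannot give a two-sided p below 0.1. With peaks limited to a false discovery rate of at most 1e-05 the counts were 0 and 2. Without silenced 3 and control 2 they were 19 and 25, but the rule then asked for 2 libraries against 2. That looser rule cannot lower the counts. The same counts over all merged regions were not taken for these settings.

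The genes that modify, process, bind and degrade collagen gave no call either. Of 51 genes in 5 lists, 29 (56.9%) had a gene-end peak in all 6 libraries, close to the 58.7% of all genes, and 0 passed the adjusted threshold of limma in either direction. At an unadjusted p under 0.05 there was 1 of the 29, against 5.03% of all genes. It was PLOD2, a lysyl hydroxylase that prepares collagen for cross-linking. PLOD2 had heights of 23, 26 and 11 in the silenced and 16, 21 and 19 in the control libraries, with a score difference of 0.49 ± 0.23 (SE; adjusted p = 0.939). The median score difference of the 29 was 0.11, against 0.01 over all genes.

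The lists differed in how many genes were called. Of 17 genes for modification and folding, which also act on proteins other than collagens, 16 were called in all 6 libraries and P3H2 in none. P4HA2, a subunit of prolyl hydroxylase, had heights of 52, 62 and 40 in the silenced and 58, 58 and 64 in the control libraries, at percentile 98.8 of the gene-end scores. SERPINH1, the collagen chaperone HSP47, had 15, 39 and 18 against 39, 41 and 30, and the groups overlapped. Of 13 genes for processing and cross-linking, 6 were called in all 6, and LOX, which cross-links collagen, had 1 peak, of 3 in control 1. Of 7 receptors 4 were called in all 6, among them ITGB1, the beta chain of the collagen-binding integrins, at 36, 31 and 12 against 24, 47 and 28. Of 8 degradation genes only MRC2, a receptor that takes up collagen, was called in all 6, at 38, 48 and 34 against 37, 52 and 39. Of 6 genes of associated matrix FN1 and FMOD were called in all 6 and SPARC in none.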

How the data were processed

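ATAC-seq libraries of NCI-H1703 cells (3 silenced, 3 control) started from 10000 to 50000 cells and were sequenced as pairs of 150 bases, per the labels' protocol. The authors deposited 1 peak list per library, with no pooling of replicates. The submitters' processing notes name Trimmomatic 0.36, Bowtie2 2.2.6, Picard 2.8.2, MACS2 2.1.1, bedtools 2.25.0 and GRCh38, without roles or settings. Per the file headers, each peak has the authors' fold enrichment (a ratio), p-value, false discovery rate and pileup signal, here called height. A shift of read ends to the cut position is not given in the sources used here. Read depth is unknown. The background coverage is the smallest value of (height + 1) / fold enrichment - 1 in a list.

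Spans came from RefSeq GRCh38.p14, and exons, introns and UTRs were not analysed here. For genes without a RefSeq promoter entry the ends are called the lower- and upper-coordinate end. Regions were made by merging peaks of the 6 lists that shared 1 bp or more. Gene-end and region scores and log2 span counts (prior count 0.5) were tested with limma 3.58.1 (lmFit, eBayes with trend, R 4.3.3) over all rows, with a Benjamini-Hochberg threshold of 0.05. Tested on simulated data with 200 changed rows each, a shift of 2 units was recovered in 187 for gene ends, 117 for regions and 133 for spans, and a shift of 1 in 30, 0 and 0. Unchanged rows called as well were 12, 4 and 4 at a shift of 2 and 1, 0 and 0 at a shift of 1. The collagen genes, classes and other lists were chosen with earlier results of these data known. Genes were named by rule: the 8 highest gene-end scores, every gene called in 1 to 5 libraries, the 3 smallest p-values per direction and fit, and every region called in 1 group only. Other values are given for illustration and were chosen after they were seen. Alternatives were the false discovery rate, lists of equal size, windows of 500 bp and 2 kb, gene starts only, ranks by p-value or height, no filter on peak number, another prior count, a replicate block, and leaving out libraries.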

Additional observations from a re-analysis of the deposited data

How the results depend on the processing

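No collagen gene passed the adjusted threshold under any alternative. With a false discovery rate of at most 1e-05, windows of 500 bp and gene starts only, the difference in collagen genes with a gene-end peak (silenced minus control, 0.333) became -6, -2 and -1.33. At that false discovery rate the lists averaged 31408 peaks in the silenced and 36505 in the control libraries. The same difference over all genes was not computed for these settings, so it cannot be read as particular to collagen genes. The 25 genes called in all libraries became 8 with the false discovery rate and 13 at 500 bp, and the 7 called in none became 18, 15 and, at 2 kb, 2. The median percentile of 9.0 was 15.2 at 2 kb and 3.39 with gene starts only. The 1 gene past the threshold at gene ends became 0 at 500 bp, 0 at 2 kb and 3 without silenced 3 and control 2 (a choice made after seeing the data). The span count of 0 became 1 with the false discovery rate. The 3 silenced-only regions became 0 with the false discovery rate, 0 with equal list sizes and 19 without silenced 3 and control 2, and the 5 control-only regions became 2, 3 and 25. Leaving out libraries loosens the rule for these regions, so the 19 and 25 cannot be set beside the 3 and 5. The COL19A1 gene-end score turned to 0.108 at 2 kb. The causes were not tested.

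Leaving out 1 library at a time gave differences of -0.5 to 1 in collagen genes with a gene-end peak and of -0.0314 to -0.00127 in the percent of peaks in collagen spans (-0.0127 with all libraries). Calls ranged from 1 to 3 at gene ends and were 0 to 0 for regions and for spans. Silenced-only regions ranged from 3 to 12 and control-only regions from 6 to 21, with the highest values without silenced 2 or silenced 3 and without control 2. With fewer libraries to meet the rule, neither count can fall. Genes called in all libraries ranged from 25 to 26, genes in none from 7 to 9, the median percentile from 8.13 to 10.4, and genes with an inner strongest region from 30 to 32 (28 with regions just outside the span included, a choice made after seeing the data). Of the single genes and regions named, 213 values under alternatives kept their direction and side of the threshold and 1 reversed, although sizes moved, as given beside the results.

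Same-numbered libraries did not deviate together (mean correlation -0.00194 at gene ends, -0.00263 over regions and -0.0949 over spans), and the labels do not pair them. With the replicate number as a block, calls were 1 at gene ends, 0 over regions and 0 over spans. The unadjusted count was 574, 1770 and 151, against 564, 1746 and 197. Short lists and heights near the lowest listed value limit what a missing peak shows.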
